A study of Mus musculus with 60 samples.

Results

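The genes of the trophectoderm, the outer epithelium of the blastocyst, were followed through the preimplantation development of nuclear transfer (NT) and fertilized mouse embryos. The 10 genes were chosen by symbol from the 27238 genes measured: Cdx2, Gata2, Gata3, Eomes, Elf5, Tfap2a, Tfap2c, Krt8, Krt18 and Hand1. Each had 1 row in the expression table. Single embryos were sequenced at 6 stages, from the 1-cell stage through 3 cleavage stages (2-cell, 4-cell and 8-cell) and the morula to the blastula, in 3 embryo types, with 2 types of donor cells, in 3 libraries for each of 20 groups (60 libraries). Expression is given as RPKM, the reads of a gene scaled to the length of its exons and to the reads of the library.

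All samples were of the BDF1 background (C57BL/6 × DBA2). In vivo embryos came from C57BL/6 females mated with DBA2 males and were taken from the females at each stage. For these females the study's methods do not name superovulation. NTC embryos were made from enucleated oocytes of superovulated young adult BDF1 females and nuclei of cumulus cells (CC). These are the somatic cells around the oocyte and also came from BDF1 females. NTM embryos were made from the same kind of oocytes and nuclei of mouse embryonic fibroblasts (MEF) that had been cultured from mid-gestation BDF1 fetuses and arrested in low serum. Both NT types were activated with SrCl2 and cytochalasin B, exposed to the histone deacetylase inhibitor Scriptaid and cultured in vitro. The strain of the mother that gave the oocyte (C57BL/6 or BDF1), nuclear transfer, activation, Scriptaid and culture therefore cannot be told apart in any comparison of NT with in vivo embryos. The sequenced embryos had been selected by their morphology.

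The trophectoderm arises when the outer cells of the morula polarize, Hippo signalling is lowered there, and the cofactors Yap1 and Wwtr1 act with Tead4 on targets such as Cdx2 and Gata3. CDX2, GATA3, GATA2, EOMES, ELF5 and the AP-2 factors TFAP2A and TFAP2C then form the transcription factor network of the lineage, while KRT8 and KRT18 pair into the intermediate filaments of its epithelium. HAND1 is known from the later trophoblast, where it drives the differentiation of giant cells.

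In GRCm38 (GENCODE M21), Cdx2 lies at chr5:147300805-147307270, Gata2 at chr6:88193891-88207032, Gata3 at chr2:9857078-9890034, Eomes at chr9:118478212-118486132, Elf5 at chr2:103411688-103450989 and Hand1 at chr11:57828705-57832818. Tfap2a lies at chr13:40715302-40738376 and Tfap2c at chr2:172549593-172558622. Krt8 (chr15:101996698-102004482, minus strand) and Krt18 (chr15:102028180-102032027, plus strand) are neighbours with 23697 bases between them and are transcribed away from each other. The exons of Gata3 overlap those of the antisense gene Gm13256 and of 9230102O04Rik, and the exons of Tfap2a overlap those of the antisense gene Gm26688. Strand-specific counting is not stated, so reads in these overlaps cannot be assigned to 1 gene. Krt8 also has a processed pseudogene, Krt8-ps, on chromosome 7, which has no row in the table, and reads that match both could have been split or lost.

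The start regions of the keratin pair, which had its highest embryo levels in blastulas, and of Cdx2 and Gata3, which encode the factors that specify the lineage, are shown 5′ to 3′ from RefSeq (GRCm38.p6). The windows hold up to 250 bases before the RefSeq start (Krt8 chr15:102004483-102004592 minus, Krt18 chr15:102027966-102028179 plus, Cdx2 chr5:147307250-147307499 minus, Gata3 chr2:9878601-9878850 minus), without stretches over 30 bases that GENCODE places in an exon of the gene. The window of Gata3 lies in an exon of the antisense gene Gm13256. The last 21 bases of the Cdx2 window lie in an exon that GENCODE gives Cdx2, and its only marked match (at -16) lies in them. Capitals mark matches on either strand to binding letters of GATA factors (GATAA, in Krt8 and Krt18), AP-2 factors (GCCNNNGGC, in Krt18, Cdx2 and Gata3), T-box factors (GGTGTG, in Gata3) and the GC box (GGGCGG, in Gata3).
Krt8: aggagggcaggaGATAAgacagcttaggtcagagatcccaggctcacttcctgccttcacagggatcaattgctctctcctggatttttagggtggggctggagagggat
Krt18: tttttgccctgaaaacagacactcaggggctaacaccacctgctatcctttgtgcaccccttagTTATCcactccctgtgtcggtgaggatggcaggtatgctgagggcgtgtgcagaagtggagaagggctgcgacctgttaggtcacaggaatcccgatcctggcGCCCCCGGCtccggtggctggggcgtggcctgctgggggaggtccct
Cdx2: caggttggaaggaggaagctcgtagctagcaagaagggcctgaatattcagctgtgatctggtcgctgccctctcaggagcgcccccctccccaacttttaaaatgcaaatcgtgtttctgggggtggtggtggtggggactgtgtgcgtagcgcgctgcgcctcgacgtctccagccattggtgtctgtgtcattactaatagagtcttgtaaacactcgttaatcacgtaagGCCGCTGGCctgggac
Gata3: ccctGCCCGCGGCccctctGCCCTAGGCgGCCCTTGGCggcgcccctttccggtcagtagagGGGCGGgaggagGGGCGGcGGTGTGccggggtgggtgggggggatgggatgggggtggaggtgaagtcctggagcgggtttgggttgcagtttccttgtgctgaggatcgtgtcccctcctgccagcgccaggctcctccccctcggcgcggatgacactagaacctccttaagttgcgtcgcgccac

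RefSeq start windows were found for 8 of the 10 genes (11 starts). In the 250 bases before these starts, GATAA matched 3 of 11 windows against 22.6% of 32851 mouse windows of this length, GCCNNNGGC 4 of 11 against 13.7%, GGGCGG 5 of 11 against 32.7% and GGTGTG 2 of 11 against 16.3%. The letters bound by TEAD factors (GGAATG) matched 2 of 11, once in Elf5 and once in Gata2, against 12.6%, and those bound by CDX factors (TTTATG) matched 2 of 11, in Elf5 and Tfap2a, against 10.8%. The ETS (CCGGAAG, 6.91%), AP-1 (TGANTCA, 6.75%) and TATA box (TATAAA, 12.4%) letters matched none of the 11. No matches of these motifs overlapped each other in the 11 windows. A match describes the letters in this window and not a bound site.

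Library totals were 5294167 to 26281508 reads in embryos and 31558141 to 47830132 in donor cells. A value of 0 for Cdx2 allowed at most 0.251 RPKM (3 reads) in the shallowest library and for Krt18 0.405 RPKM, which covers counting error only. Housekeeping genes were also listed at 0 in single embryo libraries, so 0 means that a gene was listed at 0 and not that it was absent, and values are given library by library. In vivo blastulas had 7730 to 7808 genes above 0 against 11498 to 13568 in NT blastulas, and in vivo 4-cell embryos had 5.68% to 8.87% mitochondrial reads against 29.6% to 40.4% in NT 4-cell embryos. The part of these differences in the results below was not tested. Fewer trophectoderm cells and less RNA per cell cannot be told apart in whole embryos.

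The 10 genes entered the embryo at different times. Tfap2c was above 0 in every embryo group, though near 0 in most NTM 2-cell embryos. Gata3 was present in 1-cell and 2-cell embryos, near 0 at the 4-cell stage and present in some 8-cell embryos and all morulae. Hand1 was high at the 4-cell and 8-cell stages. Cdx2 was above 0 from the morula on in all embryos but 1. Among embryos, Krt8, Krt18 and Tfap2a had their highest values in blastulas. Gata2, Eomes and Elf5 stayed at or below 20.4 RPKM in every library.

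**Figure D1:**
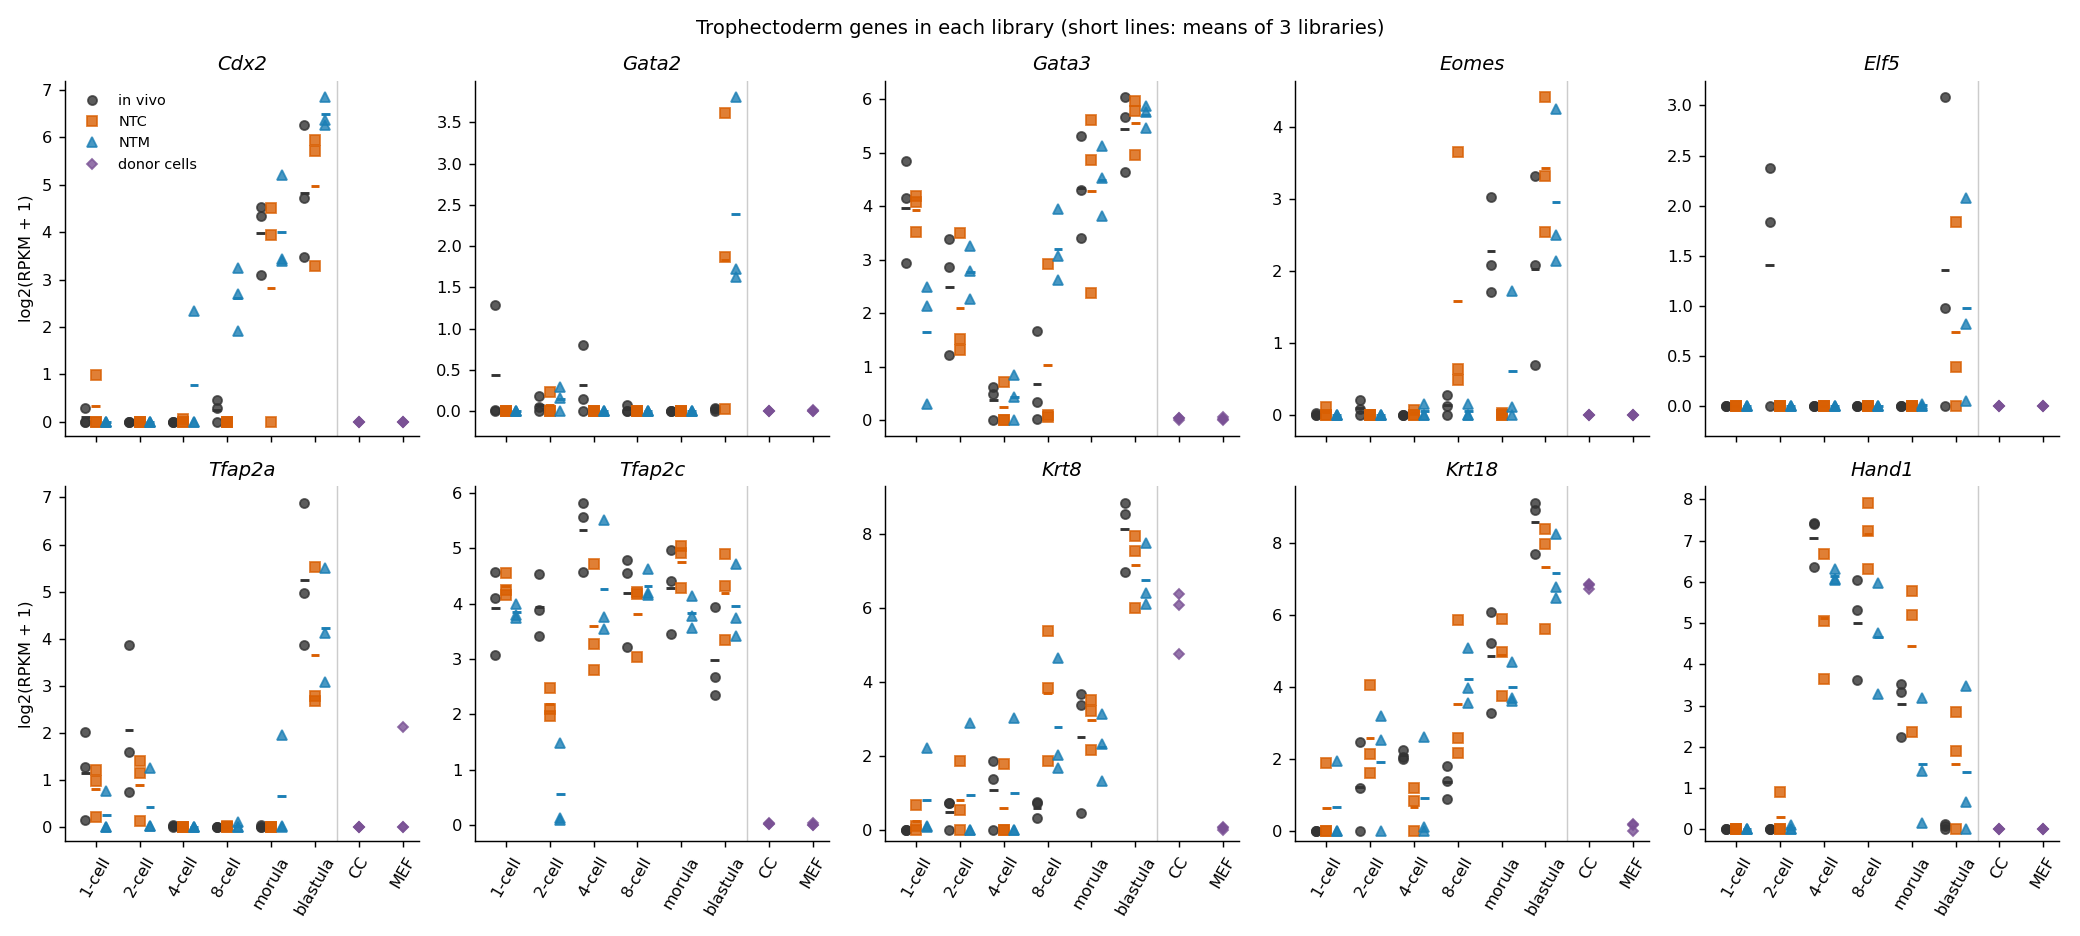
Level of each of the 10 genes, as log2(RPKM + 1), in every library by stage (circles in vivo, squares NTC, triangles NTM, diamonds donor cells), with short lines for the means of 3 libraries. Hand1 peaks at the 4-cell and 8-cell stages, and Krt8 and Krt18 are highest in blastulas and are high in CC but not in MEF.

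Cdx2, the homeobox factor that maintains the trophectoderm, was listed at 0 in all 9 libraries of 2-cell embryos. At the 8-cell stage, Cdx2 was 0, 0.384 and 0.229 RPKM in vivo and 0 in all 3 NTC embryos, but 8.44, 2.75 and 5.53 RPKM in NTM embryos. All 3 NTM embryos were above every in vivo and NTC embryo, as were 16.8% of genes against in vivo and 5.9% against NTC. The difference was 2.36 ± 0.57 (SE) on the log2(RPKM + 1) scale against in vivo (adjusted p = 0.0614, limma) and 2.62 ± 0.58 against NTC (adjusted p = 0.125), which did not pass the threshold (an adjusted p under 0.05 and a log2 change of at least 1 in size). In a single fit over all 20 groups, which pools their spread, both passed (adjusted p = 0.0435 and 0.0214). In morulae Cdx2 reached 22.1, 7.51 and 19.4 RPKM in vivo, 21.7, 0 and 14.5 RPKM in NTC and 9.75, 9.51 and 35.9 RPKM in NTM embryos. The NTC embryo with Cdx2 listed at 0 (replicate 2) had 4.17 RPKM of Gata3, also the lowest of the NTC morulae, but 10.4 RPKM of Krt8, the highest. In blastulas Cdx2 was 25.3, 75.8 and 10.2 RPKM in vivo, 60.4, 51.2 and 8.83 RPKM in NTC and 75.2, 114 and 81.1 RPKM in NTM embryos. The NTM blastulas lay above their morulae without overlap, and the change of 2.48 ± 0.52 passed the test (adjusted p = 0.0278), while the changes of 0.83 ± 0.90 in vivo (adjusted p = 0.620) and 2.16 ± 1.12 in NTC (adjusted p = 0.264) did not. Whether the NTM change differed from the in vivo change was tested by an interaction term, which was 1.65 ± 1.07 (adjusted p = 0.440). The call in NTM embryos was lost without NTM blastula replicate 1 or 2 or NTM morula replicate 1 or 2 (adjusted p up to 0.117), under median-ratio scaling (1.79, adjusted p = 0.0967) and without the filter on low values (adjusted p = 0.161).

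Gata3, a zinc finger factor that acts beside Cdx2 as a target of Tead4, was present in 1-cell and 2-cell embryos, near 0 at the 4-cell stage, present in all NTM and some other 8-cell embryos, and present in every morula. In 1-cell embryos Gata3 was 27.6, 16.7 and 6.66 RPKM in vivo, 17.2, 10.4 and 15.8 RPKM in NTC and 0.231, 4.64 and 3.40 RPKM in NTM embryos. The NTM embryos lay below all others, and the difference from NTC of -2.28 ± 0.55 passed the test (adjusted p = 0.0187). In this comparison 19.8% of 10799 genes passed, and 1 of 5 members tested did, so the share of members was near that of all genes, and the call was lost without any single NTC 1-cell library (adjusted p up to 0.0772) and without the filter (adjusted p = 0.0634). The donor cells themselves held 0 to 0.0339 RPKM of Gata3, so the 1-cell transcripts stood at a level not seen in CC or MEF. Gata3 was 9.46, 6.30 and 1.32 RPKM in 2-cell in vivo embryos and 0, 0.540 and 0.400 RPKM in 4-cell in vivo embryos. It fell by 2.12 ± 0.60 in vivo (adjusted p = 0.0208) and by 2.34 ± 0.63 in NTM embryos (adjusted p = 0.0253), and the change of -1.87 ± 0.68 in NTC embryos did not pass (adjusted p = 0.0594). The in vivo call was kept only without 2-cell replicate 3 (adjusted p up to 0.0831 without another library), and the NTM call was lost without 4-cell replicate 1 or 2 (adjusted p up to 0.0664). Both were lost without the filter (adjusted p = 0.0572 and 0.0673).

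In morulae Gata3 was 9.58, 18.8 and 38.9 RPKM in vivo, 48.0, 4.17 and 28.2 RPKM in NTC and 22.1, 13.1 and 33.8 RPKM in NTM morulae, with overlap among the types. The NTM embryos had Gata3 already at the 8-cell stage, at 14.3, 5.11 and 7.38 RPKM against 0.0176, 2.17 and 0.260 RPKM in vivo and 6.58, 0.0450 and 0.0705 RPKM in NTC embryos. The difference of 2.53 ± 0.64 from in vivo 8-cell embryos did not pass (adjusted p = 0.0729, and 0.0322 in the single fit). The NTM change from the 4-cell to the 8-cell stage exceeded the in vivo change by 2.48 ± 0.76 (interaction, adjusted p = 0.0388), a call that was lost under each of 5 other settings (adjusted p up to 0.133) and was kept only without in vivo 8-cell replicate 2, NTM 4-cell replicate 3 or NTM 8-cell replicate 2. In blastulas Gata3 ranged from 24.0 to 64.7 RPKM in vivo, from 29.9 to 61.7 RPKM in NTC and from 43.1 to 57.9 RPKM in NTM embryos. Of the 10 members Gata3 had the smallest blastula differences from in vivo of 0.12 ± 0.62 (NTC) and 0.25 ± 0.62 (NTM).

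From the 8-cell stage to the morula no member passed the test in any embryo type. In vivo, 6 of 7 members tested had an unadjusted p under 0.05, against 10.2% of 8592 genes, and 0.0116% of genes passed the adjusted threshold. These 6 were Cdx2 (3.74 ± 0.66, adjusted p = 0.112), Gata3 (3.67 ± 0.72, adjusted p = 0.114), Krt18 (3.50 ± 0.74, adjusted p = 0.122), Eomes (2.14 ± 0.64, adjusted p = 0.281), Krt8 (1.90 ± 0.86, adjusted p = 0.479) and Hand1 (-1.96 ± 0.68, adjusted p = 0.345). In this step Cdx2, Gata3, Eomes and Krt18 were higher in all 3 in vivo morulae than in all 3 in vivo 8-cell embryos, against 10.6% of genes. In NTC embryos 3 of 7 members and in NTM embryos 3 of 6 members had an unadjusted p under 0.05, against 12.6% and 9.54% of genes, and 0% of genes passed in either. In the single fit over all 20 groups, Cdx2, Gata3, Eomes and Krt18 passed in vivo (adjusted p up to 0.0224) and Cdx2, Gata3 and Hand1 in NTC embryos (adjusted p up to 0.0361).

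Krt8 and Krt18, the type II and type I keratins of simple epithelia, gave the largest values of the list. Krt8 was 126, 374 and 460 RPKM in in vivo blastulas, 246, 185 and 63.2 RPKM in NTC and 214, 84.3 and 68.4 RPKM in NTM blastulas, after 0.378 to 11.9 RPKM in all 9 morulae. No blastula of any type was within the range of the morulae. In vivo 3 members, in NTC 4 and in NTM 8 were higher in all blastulas than in all morulae of their type, against 7.21%, 18.7% and 25.1% of genes. Krt8 rose from morula to blastula in all 3 types, by 5.62 ± 0.99 in vivo (adjusted p = 0.0449), 4.19 ± 0.55 in NTC (adjusted p = 0.00595) and 4.50 ± 0.58 in NTM embryos (adjusted p = 0.00368). At this step the test was passed in vivo by 2 of 9 members (Krt8 and Tfap2a), by 3 of 9 in NTC (also Eomes) and by 4 of 10 in NTM embryos (Krt8, Tfap2a, Krt18 and Cdx2), against 0.801%, 7.16% and 4.22% of all genes. Tfap2a in vivo and in NTC, Eomes and Gata2 in NTC, and Gata2 and Elf5 in NTM embryos were near 0 in morulae. They met the filter through their blastula values and could only come out higher. Both the counts without overlap and the counts that passed therefore partly reflect the filter. Members below the filter, such as Gata2 in vivo, were not counted. The in vivo call of Krt8 was kept only without blastula replicate 1 (adjusted p up to 0.296 without another library), while its NTC and NTM calls were kept without any single library. When genes of low level were not filtered out, no member passed at this step in any type (adjusted p of Krt8 = 0.134, 0.0567 and 0.125).

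Krt18 was 208, 491 and 559 RPKM in in vivo blastulas, 338, 251 and 47.8 RPKM in NTC and 305, 109 and 89.0 RPKM in NTM blastulas. In morulae it was 8.77, 36.5 and 66.7 RPKM in vivo, 58.8, 12.4 and 30.7 RPKM in NTC and 11.2, 11.8 and 25.0 RPKM in NTM embryos, so that the lowest NTC blastula lay within the NTC morulae. Krt18 rose in NTM embryos by 3.18 ± 0.53 (adjusted p = 0.0143), a call lost without NTM blastula replicate 1 or NTM morula replicate 2 (adjusted p up to 0.0812), and the changes of 3.73 ± 0.81 in vivo (adjusted p = 0.0758) and 2.45 ± 0.75 in NTC embryos (adjusted p = 0.0808) did not pass. The in vivo change passed in the single fit (adjusted p = 0.00126). In blastulas the partners stood in a narrow ratio of Krt18 to Krt8, from 1.22 to 1.65 in 8 of the 9 embryos and 0.755 in NTC replicate 3. In morulae this ratio was wider, from 1.19 to 23.2, with Krt18 above Krt8 in all 9 embryos. In blastulas the keratins had lower means in NT than in in vivo embryos, and the differences did not pass the test (Krt8 -0.97 ± 0.69 in NTC and -1.37 ± 0.67 in NTM, Krt18 -1.26 ± 0.78 and -1.42 ± 0.61; adjusted p = 0.190 to 0.404).

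**Figure D2:**
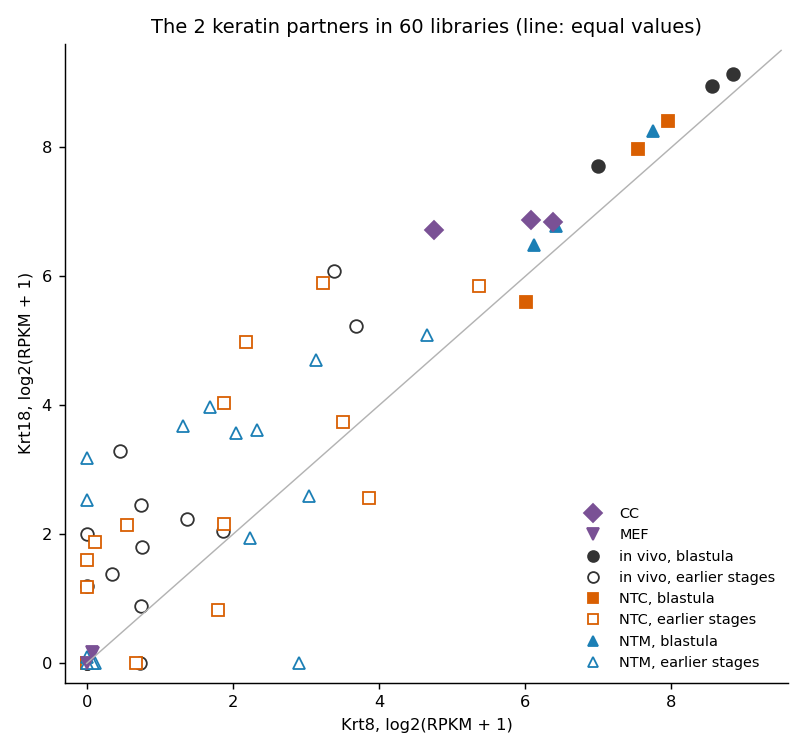
Krt18 against Krt8 in each of the 60 libraries, both as log2(RPKM + 1), with filled symbols for blastulas, open symbols for earlier embryos and purple symbols for donor cells. Blastulas and CC lie at the upper right above the line of equal values, except NTC blastula replicate 3 just below it, MEF lie at the origin, and earlier embryos are spread mostly above the line.

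The keratins were also measured in 8-cell NT embryos. Krt18 was 2.50, 1.62 and 0.862 RPKM in 8-cell in vivo embryos, 4.93, 3.49 and 56.9 RPKM in NTC and 10.9, 33.2 and 14.8 RPKM in NTM embryos. Krt8 was 0.697, 0.267 and 0.668 RPKM in vivo, 13.5, 2.68 and 40.4 RPKM in NTC and 3.11, 24.2 and 2.21 RPKM in NTM embryos. Both keratins were higher in each of the 6 NT embryos than in each of the 3 in vivo embryos, as were 23.4% of genes in NTC and 16.8% in NTM embryos. Of the 8-cell differences from in vivo, that of Krt18 in NTM embryos passed the test (2.85 ± 0.56, adjusted p = 0.0327), as did 2.02% of 8607 genes, and this call was lost without any single library of the 6 (adjusted p up to 0.176) and without the filter (adjusted p = 0.149). The Krt8 differences were 3.09 ± 0.85 in NTC (adjusted p = 0.0870) and 2.18 ± 0.77 in NTM embryos (adjusted p = 0.168), and the NTC difference passed in the single fit (adjusted p = 0.0170). No member passed between NTC and in vivo 8-cell embryos, where 3 of 6 members had an unadjusted p under 0.05, against 19.9% of genes, and 1.46% of genes passed.

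From the 4-cell to the 8-cell stage, Krt18 moved downward in vivo, as the median gene did, and upward in both NT types. The in vivo change of Krt18 did not pass. All in vivo 8-cell embryos lay below the in vivo 4-cell embryos (3.15, 3.74 and 3.02 RPKM), and all NT 8-cell embryos lay above the 4-cell embryos of their type, which had 1.27, 0.784 and 0 RPKM in NTC and 5.05, 0.0731 and 0 RPKM in NTM embryos. Of all genes, 48.7% lay lower in this way in vivo, and 8.06% in NTC and 7.42% in NTM embryos lay higher. The change in NTM embryos exceeded that in vivo by 4.05 ± 0.96 (interaction, adjusted p = 0.0116) and the change in NTC embryos by 3.60 ± 1.11 (adjusted p = 0.0373). Krt8 differed in the same way in NTC embryos (3.57 ± 1.15, adjusted p = 0.0447) and did not pass in NTM embryos (2.25 ± 1.29, adjusted p = 0.250). These terms stand against a median over all genes of 0.88 in both NT types, since in vivo values fell by a median of 1.05 at this step, and 19.5% of genes in NTC and 18.7% in NTM embryos passed, against 3 of 6 and 2 of 6 members. The Krt18 term in NTM embryos passed under each of 5 other settings and without any single library, where its adjusted p was at most 0.0357. The NTC terms were lost under median-ratio scaling of the libraries (adjusted p = 0.0893 for Krt8 and 0.131 for Krt18) and without the filter (adjusted p = 0.114 and 0.0934), and that of Krt8 also with a pseudocount of 0.1 (adjusted p = 0.0838). That of Krt8 was kept only without in vivo 4-cell replicate 3, NTC 4-cell replicate 2 or NTC 8-cell replicate 2 (adjusted p up to 0.113 otherwise), and that of Krt18 only without in vivo 8-cell replicate 1, NTC 4-cell replicate 1 or any single NTC 8-cell embryo (adjusted p up to 0.0827 otherwise). No member passed in NTC or NTM embryos alone at this step, where 3 members of 6 in each had an unadjusted p under 0.05, against 10.7% and 11.3% of genes, and where 0.0564% and 0.363% of genes passed. Both keratins passed in the single fit in NTC (adjusted p up to 0.0356) and Krt18 and Gata3 in NTM embryos (adjusted p up to 0.0127).

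Hand1, a basic helix-loop-helix factor, was the member with the sharpest early peak. It was listed at 0 in all 9 libraries of 1-cell embryos and at no more than 0.880 RPKM in 2-cell embryos. In 4-cell embryos Hand1 was 81.7, 171 and 169 RPKM in vivo, 101, 11.6 and 32.2 RPKM in NTC and 65.4, 78.8 and 66.7 RPKM in NTM embryos, supported by 274 to 5514 reads in each library. All 9 embryos of the 4-cell stage lay above all 9 of the 2-cell stage, and the genes separated in this direction were 36.3% (in vivo), 22.9% (NTC) and 19.8% (NTM). Hand1 rose by 7.07 ± 0.41 in vivo (adjusted p = 3.2e-05), 4.82 ± 0.76 in NTC (adjusted p = 0.00171) and 6.11 ± 0.57 in NTM embryos (adjusted p = 0.000456), and these calls were kept under 5 other settings and without any single library. At this step 52.2%, 36.6% and 26.4% of genes passed, against 3 of 7, 1 of 5 and 3 of 6 members tested.

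After the 4-cell stage Hand1 declined at different times. In 8-cell embryos it was 65.0, 11.3 and 38.9 RPKM in vivo, 149, 78.7 and 241 RPKM in NTC and 8.69, 61.7 and 26.3 RPKM in NTM embryos. Every NTC embryo was above every in vivo and NTM embryo at this stage, as were 23.4% and 15.5% of genes. Hand1 fell by 2.07 ± 0.61 in vivo (adjusted p = 0.0272), where 43.7% of genes passed and 1 of 5 members did. This call was lost without in vivo 4-cell replicate 2 or 3 (adjusted p up to 0.106) without the filter (adjusted p = 0.0740) and under median-ratio scaling (-0.67, adjusted p = 0.420), which brought the median change of all genes from -1.05 to -0.18. The change was 2.03 ± 0.68 in NTC (adjusted p = 0.293) and -1.48 ± 0.64 in NTM embryos (adjusted p = 0.413). The NTC change exceeded the in vivo change by 4.10 ± 1.05 (interaction, adjusted p = 0.0153), which was kept without any single library and lost under median-ratio scaling and without the filter, with adjusted p = 0.0761 at most. In morulae Hand1 was 3.68, 10.6 and 9.12 RPKM in vivo, 35.6, 53.8 and 4.12 RPKM in NTC and 8.08, 1.67 and 0.107 RPKM in NTM embryos. By the blastula it was at most 0.0872 RPKM in vivo, while NTC replicates 2 and 3 held 6.18 and 2.70 RPKM and NTM replicate 2 held 10.2 RPKM. The blastula differences from in vivo did not pass (1.51 ± 0.71 in NTC, adjusted p = 0.212, and 1.31 ± 0.85 in NTM, adjusted p = 0.360).

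**Figure D3:**
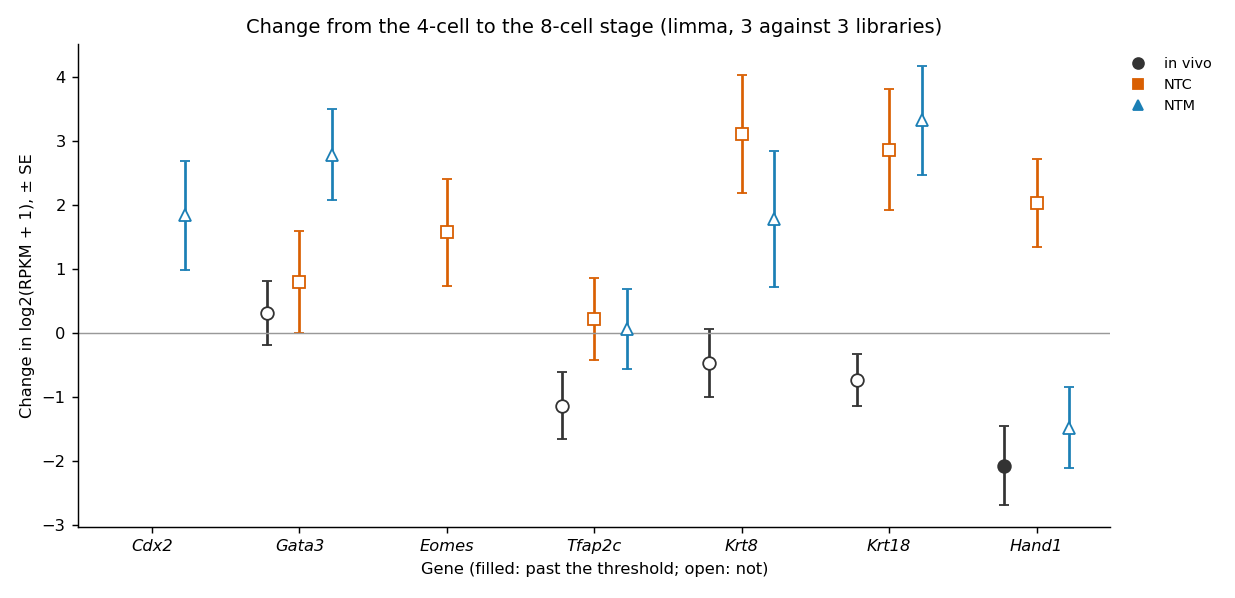
Change of each tested gene from the 4-cell to the 8-cell stage on the log2(RPKM + 1) scale, with its standard error, in vivo (circles), NTC (squares) and NTM (triangles); filled symbols passed the threshold. Krt18 is below 0 in vivo and above 0 in both NT types, and Hand1 is below 0 in vivo and NTM and above 0 in NTC embryos.

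The AP-2 factors behaved differently from each other. Tfap2a was at most 0.0813 RPKM in all 4-cell and 8-cell embryos and in 8 of 9 morulae, with 2.90 RPKM in NTM morula replicate 3. In blastulas Tfap2a was 13.6, 117 and 30.6 RPKM in vivo, 45.1, 5.44 and 5.86 RPKM in NTC and 44.6, 16.4 and 7.48 RPKM in NTM embryos. All 9 blastulas were above all 9 morulae. With Krt8, Tfap2a was the member that rose at this step in every embryo type, by 5.23 ± 0.93 in vivo (adjusted p = 0.0449), 3.66 ± 0.71 in NTC (adjusted p = 0.0193) and 3.58 ± 0.73 in NTM embryos (adjusted p = 0.0248). The in vivo call was kept only without blastula replicate 1 (adjusted p up to 0.296 otherwise), the NTC call was lost without morula replicate 1 or 3 (adjusted p up to 0.0685), and the NTM call without blastula replicate 1 or 2 or morula replicate 1 or 2 (adjusted p up to 0.133). Earlier, Tfap2a was 2.02, 13.6 and 0.672 RPKM in 2-cell in vivo embryos, and its change to the 4-cell stage of -2.04 ± 0.77 did not pass (adjusted p = 0.0588).

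Tfap2c, which is loaded into the oocyte and acts upstream of Cdx2, was above 0 at every stage. It was near 0 in most NTM 2-cell embryos. In 1-cell embryos it was 7.42, 16.3 and 22.9 RPKM in vivo, 16.8, 22.4 and 18.1 RPKM in NTC and 12.9, 12.4 and 15.0 RPKM in NTM embryos. In 2-cell embryos it was 22.1, 13.7 and 9.69 RPKM in vivo, but 3.27, 4.55 and 2.93 RPKM in NTC and 0.0694, 1.80 and 0.0878 RPKM in NTM embryos. The 2-cell embryos of the 3 types did not overlap, and 6.82% of genes in NTC and 10.6% in NTM embryos lay below all in vivo embryos at this stage. Tfap2c fell from the 1-cell to the 2-cell stage in NTC embryos by 2.14 ± 0.33 (adjusted p = 0.00475) and in NTM embryos by 3.28 ± 0.59 (adjusted p = 0.0122), and the change in vivo was 0.02 ± 0.65 (adjusted p = 0.996). At this step 13.5% of genes in NTC and 9.4% in NTM embryos passed, against 1 of 5 and 1 of 4 members, and in vivo 0% of 10854 genes and 0 of 5 members passed, with 5.67% of genes and 0 members at an unadjusted p under 0.05. The differences between these changes were -2.16 ± 0.70 for NTC (adjusted p = 0.268) and -3.30 ± 0.86 for NTM embryos (adjusted p = 0.117), so the interaction did not pass. The NTM call was lost without any single 1-cell library (adjusted p up to 0.0956), and the 2-cell difference of -3.37 ± 0.82 between NTM and in vivo embryos did not pass either (adjusted p = 0.147). In the single fit the 2-cell differences from in vivo passed in NTM (adjusted p = 1.35e-05) and NTC embryos (-1.76, adjusted p = 0.0362), as did the NTM interaction (adjusted p = 0.00375).

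By the 4-cell stage Tfap2c was 22.9, 55.8 and 46.4 RPKM in vivo, 25.3, 8.63 and 5.94 RPKM in NTC and 10.6, 12.6 and 44.6 RPKM in NTM embryos. It rose by 1.38 ± 0.48 in vivo (adjusted p = 0.0456) and 3.70 ± 0.78 in NTM embryos (adjusted p = 0.00932), and the in vivo call was lost without 2-cell replicate 2 or 3 or 4-cell replicate 2 or 3 (adjusted p up to 0.157), with a pseudocount of 0.1 (adjusted p = 0.0572), without the filter (adjusted p = 0.0667) and under median-ratio scaling (adjusted p = 0.0520). The NTC embryos were lower than in vivo embryos by a log2 change of -1.73 ± 0.55 (adjusted p = 0.0467), where 27.8% of 11457 genes passed and 1 of 4 members tested did. Mitochondrial reads took 31.6% to 34.7% of these NTC libraries, and the median difference of all genes was -0.39. The call was lost under median-ratio scaling and without the filter (adjusted p up to 0.134), and it was kept only without NTC 4-cell replicate 1 (adjusted p up to 0.176 otherwise). Without that library 3 members passed. No member passed between NTM and in vivo 4-cell embryos, where 21.1% of genes passed and 1 of 5 members (Hand1) had an unadjusted p under 0.05, against 36.1% of genes. From the 8-cell stage on, Tfap2c lay between 4.07 and 31.8 RPKM in all 27 embryos.

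Eomes, a T-box factor needed by the polar trophectoderm, was above 2 RPKM in every in vivo morula. It was 3.23, 2.27 and 7.16 RPKM in in vivo morulae, 0.0130, 0 and 0 RPKM in NTC morulae and 0.0758, 0 and 2.30 RPKM in NTM morulae. All 3 in vivo morulae were above all 3 NTC morulae, as were 5.32% of genes, while the NTM morulae overlapped both other types. The difference of -2.27 ± 0.52 did not pass (adjusted p = 0.116), and neither did that of -1.66 ± 0.67 in NTM embryos (adjusted p = 0.457). No member passed between NT and in vivo morulae, where Eomes was in each case the member with an unadjusted p under 0.05, against 13.3% of genes in NTC and 9.48% in NTM embryos, and where 0.0321% and 0.168% of genes passed. In the single fit over all 20 groups, Eomes passed between NTC and in vivo morulae (adjusted p = 0.0138).

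In blastulas Eomes was 0.613, 3.23 and 8.99 RPKM in vivo, 20.4, 9.02 and 4.83 RPKM in NTC and 18.2, 4.67 and 3.39 RPKM in NTM embryos, with overlap among the types. Eomes rose from morula to blastula in NTC embryos by 3.42 ± 0.52 (adjusted p = 0.00832), and the changes were -0.24 ± 0.92 in vivo (adjusted p = 0.908) and 2.36 ± 0.70 in NTM embryos (adjusted p = 0.0788). The NTC change exceeded the in vivo change by 3.67 ± 1.00, which did not pass (interaction, adjusted p = 0.104) except in the single fit (adjusted p = 0.00395). At the 8-cell stage NTC replicate 3 already held 11.6 RPKM of Eomes, 56.9 RPKM of Krt18 and 40.4 RPKM of Krt8, the highest 8-cell value of each.

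Gata2, the partner of Gata3 in trophoblast genes, was listed at 0 in all 9 morulae. In blastulas it was 0.0236, 0 and 0.0323 RPKM in vivo, which is 0 to 2 reads, against 11.2, 2.67 and 0.0181 RPKM in NTC and 13.0, 2.30 and 2.09 RPKM in NTM embryos. The 3 NTM blastulas lay above the in vivo blastulas, as did 28.4% of genes. The difference was 2.36 ± 0.70 in NTM (adjusted p = 0.0891) and 1.81 ± 0.85 in NTC embryos (adjusted p = 0.210), and neither passed. Both passed in the single fit (adjusted p = 7.18e-05 and 0.00157), where both standard errors were 0.425. That fit also takes its spread from groups in which Gata2 was at or near 0. These p-values therefore understate the spread among the NT blastulas. Elf5, an ETS factor that reinforces Cdx2 and Eomes in trophoblast stem cells, was 0, 0.974 and 7.51 RPKM in vivo, 2.58, 0.313 and 0 RPKM in NTC and 3.20, 0.763 and 0.0329 RPKM in NTM blastulas. Each type had blastulas with and almost without Elf5. Before the blastula Elf5 was above 1 RPKM in 2 embryos, the 2-cell in vivo replicates 2 and 3 (4.20 and 2.56 RPKM).

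**Figure D4:**
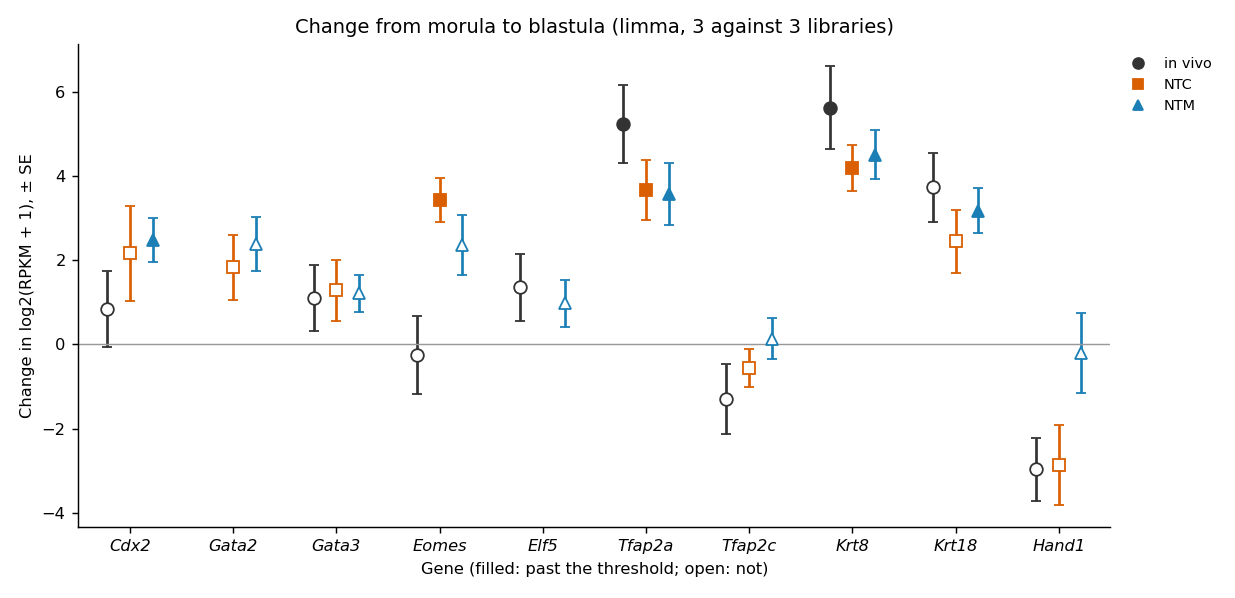
Change of each tested gene from morula to blastula on the log2(RPKM + 1) scale, with its standard error, in vivo (circles), NTC (squares) and NTM (triangles); filled symbols passed the threshold and genes below the filter have no symbol. Tfap2a and Krt8 are filled in all 3 types, Eomes in NTC, and Cdx2 and Krt18 in NTM.

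No member passed the test between NT and in vivo blastulas. This held for 10 of 10 members in NTC, where 9.46% of 9288 genes passed, and for 10 of 10 in NTM embryos, where 0.746% of 9380 genes passed. At an unadjusted p under 0.05 there were 0 members in NTC and 2 in NTM embryos (Gata2 and Krt18), against 28.9% and 26.2% of genes. In the single fit over all 20 groups Gata2 and Eomes (adjusted p = 0.0432) passed in NTC and Gata2 in NTM embryos, and 1 passed in NTC embryos without NTC blastula replicate 1. The differences ranged from -1.58 ± 1.09 (Tfap2a) to 1.81 ± 0.85 (Gata2) in NTC and from -1.42 ± 0.61 (Krt18) to 2.36 ± 0.70 (Gata2) in NTM embryos, with standard errors of 0.61 or more. In simulated data for NTC against in vivo blastulas, 0 of 50 genes with a log2 change of 2 passed. The lack of passing members is therefore no evidence of equal levels. The median gene was 0.85 (NTC) and 0.86 (NTM) higher in NT than in in vivo blastulas. Between NTM and NTC blastulas no member of 10 and 0% of 10187 genes passed. There the Cdx2 values of the 3 NTM blastulas all lay above those of the NTC blastulas (1.50 ± 0.61, adjusted p = 1), as did 4.06% of genes, and Cdx2 was the 1 member with an unadjusted p under 0.05, against 3.09% of genes.

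**Figure D5:**
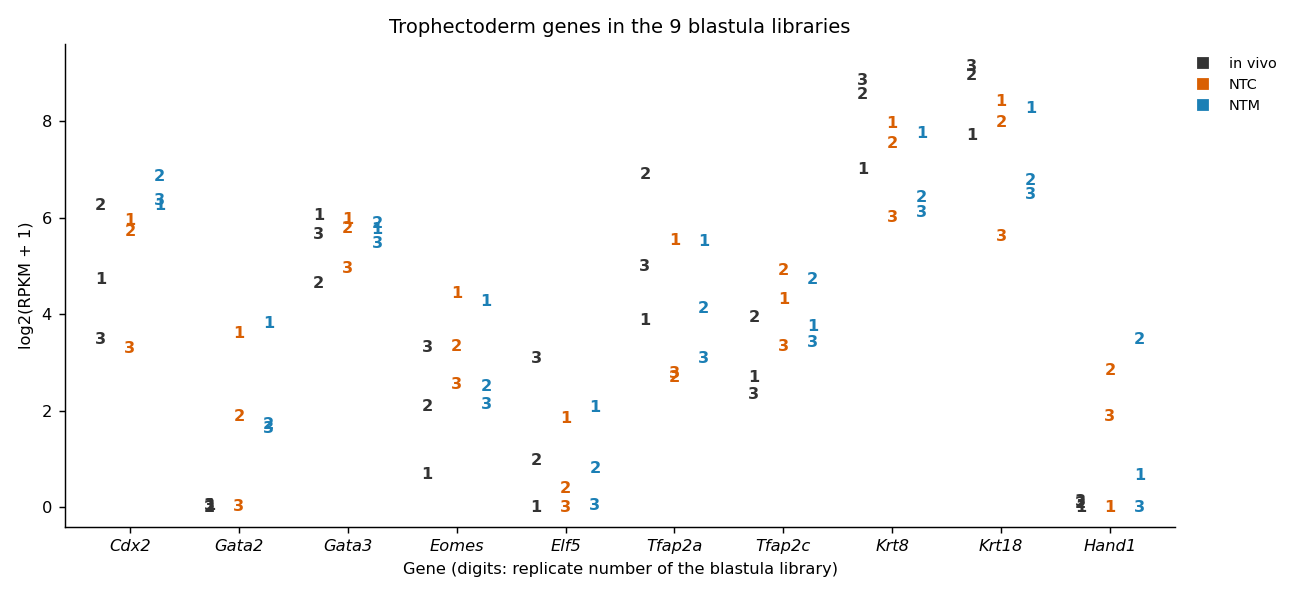
Level of the 10 genes, as log2(RPKM + 1), in the 9 blastula libraries, with the digit giving the replicate and the colour the embryo type. NTC replicate 3 is lowest of its group for 8 genes and NTM replicate 3 for 9 genes.

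The blastulas of a group differed across many members at once. Among NTC blastulas replicate 1 was highest for 8 of 10 members and replicate 3 lowest for 8, and among NTM blastulas replicate 1 was highest for 6 and replicate 3 lowest for 9. In vivo, replicate 1 was lowest for 6 members and replicate 3 highest for 6. The summed RPKM of the 10 members was 444 to 1129 in vivo, 172 to 804 in NTC and 304 to 740 in NTM blastulas, against 50.4 to 202 in the 9 morulae. The summed RPKM of 12 inner cell mass markers (among them Pou5f1, Nanog and Sox2) was 180 to 313 in vivo, 223 to 282 in NTC and 219 to 456 in NTM blastulas. The library lowest for most members had the highest share of mitochondrial reads in its group. This share was 39.7% in NTC replicate 3, 50.4% in NTM replicate 3 and 34.9% in in vivo replicate 1. The other blastulas had 20.4% to 31.2%. RPKM is scaled to all reads of a library, and the part of mitochondrial reads and of cell numbers in these values was not tested.

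Other genes of the outer epithelium were compared as lists. Of 18 further trophectoderm genes, the in vivo blastulas had 2 of 12 tested that passed upward against morulae, the NTC blastulas 5 of 12 and the NTM blastulas 4 of 14, with none downward and with median changes of 2.04, 1.24 and 1.71 against -0.41, 0.17 and 0.58 over all genes. Dppa1 (7.24 ± 0.71, adjusted p = 0.00658) and Tspan8 (6.09 ± 0.96, adjusted p = 0.0333) rose in vivo, and both rose in NTC and NTM embryos as well. Tspan8, which encodes a tetraspanin, went from 1.12 to 6.82 RPKM in in vivo morulae to 69.6 to 536 RPKM in in vivo blastulas. Id2, an inhibitor of basic helix-loop-helix factors that marks early trophectoderm cells, rose by 4.54 ± 1.06 in NTC (adjusted p = 0.0360) and 6.31 ± 0.74 in NTM embryos (adjusted p = 0.00322), and its change of 4.14 ± 1.23 in vivo did not pass (adjusted p = 0.145). Of 20 genes for junctions, polarity and ion or water transport, 0 of 18 passed in vivo (limma, 0 also at an unadjusted p under 0.05), 4 of 19 in NTC (among them the desmosome genes Dsg2, Dsc2 and Dsp) and 4 of 20 in NTM embryos (among them Dsc2 and Cdh1, the latter encoding E-cadherin).

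Of 10 upstream genes (Tead4, Yap1, Wwtr1, Klf5, Sox15 and the Hippo pathway genes among them), Sox15 passed at the same step, downward in NTC embryos (-3.32 ± 0.44, adjusted p = 0.00612), and none passed in vivo or in NTM embryos (1 in each at an unadjusted p under 0.05). At the step from the 2-cell to the 4-cell stage, when Hand1 rose, 4 of 10 upstream genes rose in vivo (Sox15, Tead4, Klf5 and Nf2) and Yap1 fell, in NTC embryos 6 of 8 rose and Yap1 fell, and in NTM embryos 3 of 9 rose (Sox15, Klf5 and Lats2). Of all genes, 31.4%, 16.4% and 12.1% rose at this step, so the in vivo share was near that of all genes. Of the inner cell mass markers, none passed from morula to blastula in vivo or in NTM embryos (3 in each at an unadjusted p under 0.05), and Spic (-2.65 ± 0.42, adjusted p = 0.00969) and Fgf4 (-2.23 ± 0.44, adjusted p = 0.0193) fell in NTC embryos. From morula to blastula, 0.801% of all genes passed in vivo, 4.22% in NTM and 7.16% in NTC embryos.

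Donor cells differed in the keratins. Krt8 was 66.6, 26.0 and 82.0 RPKM in CC and 0.0526, 0.0598 and 0 RPKM in MEF, and Krt18 was 116, 104 and 114 RPKM in CC and 0.136, 0.116 and 0 RPKM in MEF. The groups did not overlap, and MEF were lower by a log2 change of -5.68 ± 0.67 for Krt8 (adjusted p = 0.00155) and -6.69 ± 0.52 for Krt18 (adjusted p = 0.000158), 2 of 3 members tested against 6.29% of genes. Both keratins were near 0 in MEF and met the filter through their CC values, so this count of members is no evidence about the list. NTC 1-cell embryos, made with CC nuclei, held at most 0.602 RPKM of Krt8 and 2.69 RPKM of Krt18. Cdx2, Eomes, Elf5 and Hand1 were listed at 0 in all 6 donor libraries. Of 14 cumulus markers, 13 were listed at 0 in all in vivo blastulas, 9 in NTC and 12 in NTM blastulas. The cumulus marker that remained in vivo was Gja1, a gap junction gene that embryos also express, at 388 to 1018 RPKM. Of 12 fibroblast markers 11, 9 and 7 were listed at 0. The summed RPKM of this list was at most 20.9 in vivo, 4.63 in NTC and 13.9 in NTM blastulas, against 8950 to 11705 in MEF. In vivo blastulas had fewer genes above 0 than NT blastulas. Of 12 oocyte and early embryo markers, 11, 3 and 2 were listed at 0 in the same groups. The count of zeros was thus also higher in vivo in this list, which holds no donor cell markers, and its cause was not tested.

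Blastulas of both NT types were compared with their donor cells. Cdx2, Gata3, Eomes, Tfap2a and Tfap2c were higher in NTC blastulas than in CC, 5 of 9 members tested, with Gata3 at 5.54 ± 0.49 (adjusted p = 0.000471), while Krt8 (1.43 ± 0.63, adjusted p = 0.142) and Krt18 (0.52 ± 0.69, adjusted p = 0.588) did not pass. In NTM blastulas 8 of 10 members were higher than in MEF, these 5 with Gata2, Krt8 and Krt18, and Krt18 differed by 7.06 ± 0.54 (adjusted p = 6.61e-05). In these comparisons 9.92% and 11% of genes passed upward. Cdx2 and Eomes were listed at 0 in all donor libraries, and Tfap2a in all CC. Gata3 was at most 0.0339 RPKM in donor cells, and the keratins at most 0.136 RPKM in MEF. Gata2 was also near 0 in MEF. These members met the filter through their blastula values and could only come out higher, so the counts are no evidence about the list. The Gata2 call was kept only without NTM blastula replicate 3 (adjusted p up to 0.0661 otherwise), and the Tfap2a call against MEF was lost without MEF replicate 2 or 3 or NTM blastula replicate 1 or 2 (adjusted p up to 0.0563). Without the filter the Gata2 call and both Tfap2a calls were lost (adjusted p up to 0.0857). The NTC and NTM comparisons used different donor cells, so their lists were not tested against each other.

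The genes whose stage pattern was most like that of each member were found over the 18 embryo group means, which share stage, depth and amplification, so the correlations describe a pattern and were not tested. Krt8 was most like Ppp1r18 (r = 0.97) and Anxa3 (r = 0.97), Krt18 most like Plet1 (r = 0.96) and Lrp2 (r = 0.95), Hand1 most like Rarg (r = 0.97) and C130074G19Rik (r = 0.97), and Gata2 most like Wnt3a (r = 0.95) and Dsp (r = 0.94). Cdx2 was most like 2610528J11Rik (r = 0.96) and Camk2d (r = 0.95), Gata3 like H2afy (r = 0.91) and Dab2 (r = 0.87), Tfap2a like Mbp (r = 0.96) and Pmepa1 (r = 0.93), Eomes like Arl5a (r = 0.92) and Pak6 (r = 0.91), Tfap2c like Tardbp (r = 0.91) and Actr10 (r = 0.89), and Elf5 like Gm14418 (r = 0.95) and Id2 (r = 0.79). Over the 36 single libraries from the 4-cell stage to the blastula, Dab2 came first for Gata3 (r = 0.92), and for the other 9 members neither of the genes named here was among the 2 most alike.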

How the data were processed

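RNA of single embryos and of donor cells was amplified and sequenced by the authors, who deposited 1 table of RPKM values per gene for 60 libraries. The submitters' processing notes name Bowtie 0.12.2 and the mm8 build, while the study's methods name other tools, so the build behind the table is uncertain. Its identifiers were matched to symbols with GENCODE M21. Read totals and whole reads behind a value were recovered from the RPKM steps and exon lengths (20628 genes within 0.02 of a whole read), with the lengths of Tfap2a, Krt8 and Krt18 taken from the steps of their own values.

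RPKM values were compared as log2(RPKM + 1) with limma 3.58.1 in R 4.3.3, over genes with a mean of at least 0.5 RPKM in the groups compared, in 38 comparisons of groups and 10 interaction terms. A fold on this scale understates changes of low genes. A gene near 0 in 1 group met the filter only through another group, for members and all genes alike. A gene passed with a Benjamini-Hochberg adjusted p under 0.05 over all genes tested and a log2 change of at least 1 in size. The p-values measure the spread between libraries of a group. Per the labels, embryos came from several experiments, which are not marked, so batches could not be fitted. The scripts were tested on simulated data. For NTC against in vivo blastulas, 0 of 50 genes with a log2 change of 2 passed and 27 of 50 with 4. For in vivo morula to blastula, 1 of 50 and 23 of 50 passed.

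All 10 genes were described in every group. Of other lists, counts and up to 3 called genes with the largest change were named, except where a count was listed in full. The likeness search used genes with a mean of at least 5 RPKM in at least 1 embryo group. The members and lists were chosen with earlier results of these data known. The alternatives were a pseudocount of 0.1, no filter, median-ratio scaling, a single fit over all 20 groups, a replicate block and leaving out each library. The single fit takes its spread from all groups, including those where a gene is near 0. Its p-values can therefore understate the spread of the groups compared. Python 3.11.15, numpy 2.4.6, pandas 2.3.3, scipy 1.17.1 and matplotlib 3.10.9 were used.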

Additional observations from a re-analysis of the deposited data

Results flagged for a closer look

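At the step from the 4-cell to the 8-cell stage, 5 changes of NT embryos differed from the in vivo change by an interaction term. In NTC embryos these were Krt8 (3.57, adjusted p = 0.0447, limma), Krt18 (3.60, adjusted p = 0.0373) and Hand1 (4.10, adjusted p = 0.0153), and in NTM embryos Gata3 (2.48, adjusted p = 0.0388) and Krt18 (4.05, adjusted p = 0.0116), on the log2(RPKM + 1) scale. The median term over all genes was 0.88 in both types, and 0.28 (NTC) and 0.22 (NTM) under median-ratio scaling. Of these 5, the Krt18 term of NTM embryos passed under all 5 other settings and without each of the 12 libraries in turn.

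From the 8-cell stage to the morula, Tfap2c was higher in all 3 NTC morulae than in all 3 NTC 8-cell embryos and lower in all 3 NTM morulae than in all 3 NTM 8-cell embryos. The changes differed by 1.44 on the log2(RPKM + 1) scale, and this difference was not tested. At this step 0% of genes passed in either NT type (limma), and Tfap2c was not among the members with an unadjusted p under 0.05. The share of all genes that separated in these directions is not given here, so these moves are only described.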

How the results depend on the processing

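Of 47 member results that passed, 44 passed with a pseudocount of 0.1, 24 without the filter, 39 under median-ratio scaling, 46 in a single fit over all 20 groups and 41 with a replicate block, and none reversed. Same-numbered libraries did not deviate together (r from -0.205 to 0.0928), so the numbers do not pair the samples. With a replicate block the count of members that passed was 3 in place of 1 for NTC embryos from the 2-cell to the 4-cell stage, and 0 in place of 1 for NTC against in vivo 4-cell embryos. The 6 results lost with this block were Tfap2c in vivo and Gata3 in NTM embryos from the 2-cell to the 4-cell stage, Tfap2c in NTC against in vivo 4-cell embryos, and the interaction terms of Krt8 and Krt18 in NTC and Gata3 in NTM embryos (adjusted p from 0.0562 to 0.0808). Without the filter it was 1 for in vivo 2-cell to 4-cell (3 with it), 0 for NTC against in vivo 4-cell embryos (1 with it), and 0 for morula to blastula in each of the embryo types (2 in vivo, 3 in NTC and 4 in NTM with it), where more genes were tested. Under median-ratio scaling it was 2 for NTC 2-cell to 4-cell and 0 for NTC against in vivo 4-cell embryos. With a pseudocount of 0.1 it was 2 for NTC 2-cell to 4-cell and 1 for NTM against in vivo blastulas. In the single fit, which has more degrees of freedom, it was 5 in vivo and 3 in NTC embryos from the 2-cell to the 4-cell stage, 4 in vivo and 3 in NTC embryos from the 8-cell stage to the morula, 5 in vivo and 5 in NTC embryos in the last step (morula to blastula), 2 for NTC against in vivo 4-cell embryos, and 1, 2 and 1 for NTC against in vivo morulae, NTC against in vivo blastulas and NTM against in vivo blastulas.

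With 1 library left out, 226 of 312 passing results still passed. The counts ranged from 1 to 4 for in vivo 2-cell to 4-cell (1 without 2-cell replicate 2 or 4-cell replicate 2 or 3), from 0 to 2 for in vivo morula to blastula, from 2 to 5 for NTC morula to blastula (5 without blastula replicate 3), from 1 to 5 for NTM morula to blastula (1 without blastula replicate 1 or morula replicate 2, and 2 without blastula replicate 2 or morula replicate 1), from 0 to 3 for NTC against in vivo 4-cell embryos, from 0 to 1 for NTM against in vivo 4-cell embryos (1 without NTM replicate 1) and from 0 to 1 for NTC against in vivo blastulas (1 without NTC replicate 1). Other causes of these shifts were not tested. With 3 libraries per group, standard errors of the blastula differences were 0.61 or more.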
